A study of Mus musculus with 19 samples.

Results

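The genes described here make the machinery that copies DNA and the deoxynucleotides it consumes. They are 44 named genes, followed across all 6 sorted groups and 19 arrays. Each gene is represented by the probe set with the highest mean over the 19 arrays among those annotated with its symbol alone, and it was kept if that probe set reached a log2 level of 4 on at least 2 arrays. By this rule 43 of the 44 genes were kept, out of 9928 genes kept in all. The exception was Chaf1a, for which no probe set carried its symbol alone. The rule used no measured difference between groups, but the list itself was chosen with earlier results of these data known. Throughout, a level is a log2 intensity, a difference is a difference of mean log2 levels, and a difference of 1 is a doubling.

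The study profiled mouse CD4+ helper T cells on C57BL/6J background with a reporter in which YFP marks expression of BCL6, the transcription factor of follicular helper T (Tfh) cells. OT-II T cells, which recognise an ovalbumin peptide, carried 1 Bcl6yfp allele (Bcl6yfp/+) and were given to congenic hosts, which received NP-OVA in CFA subcutaneously. Draining lymph nodes were taken at 7 or 10 days and cells were sorted on CXCR5, PD-1 and YFP. RNA from the sorted cells was amplified and hybridised to Affymetrix arrays. YFP-positive cells were CXCR5hi PD-1hi and expressed the reporter (4 arrays, 1 from day 10 and 3 from day 7). YFP-negative cells were CXCR5hi PD-1hi without it (4 arrays, 2 from day 10 and 2 from day 7). CXCR5lo PD-1lo cells, the non-Tfh cells, gave 3 arrays from day 7. CXCR5hi PD-1hi cells labelled Bcl6yfp/+, without a split on YFP, gave 3 arrays from day 7. CXCR5hi PD-1hi cells labelled Bcl6+/+, which lack the reporter allele, gave 3 arrays (2 from day 10 and 1 from day 7). The protocol reads the same for all groups and names Bcl6yfp/+ OT-II cells alone, so whether the Bcl6+/+ cells were transferred OT-II cells is not stated. Naive CD4+ CD44lo CD62Lhi cells from the spleen of unimmunized mice gave 2 arrays. The immunized groups share the immunization, and the YFP-sorted cells are heterozygous for the reporter, so 1 Bcl6 allele carries it. The transferred OT-II cells share 1 T cell receptor, so they stand for a single specificity. Nothing in the labels states that the arrays within a group represent separate animals, so the spread behind each p-value is that between these arrays and may be technical.

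A T cell that starts to divide passes from quiescence into S phase. Origins are marked by the origin recognition complex, licensed by CDC6 and CDT1 loading the MCM2-7 helicase, and fired when CDC45 and the GINS complex join that helicase. Polymerases then copy both strands on the sliding clamp PCNA, while ribonucleotide reductase, thymidylate synthase and thymidine kinase supply deoxynucleotides. Many of these genes are classical targets of E2F transcription factors, which the retinoblastoma family of pocket proteins holds back in resting cells. Germinal centre responses are known for rapid division, chiefly of B cells, with Tfh cells dividing early in the response.

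Several features of the arrays bear on the values. The arrays fell into 7 sets by their distribution of sorted values, at most 0.0482 log2 apart within a set and at least 0.0666 between sets. They are called normalization sets here, because arrays within a set differ little in that distribution. Arrays 1, 2 and 3 of the CXCR5lo PD-1lo cells and of both YFP-sorted groups made up sets 1, 2 and 3, and YFP-positive 4, YFP-negative 4 and naive 1 set 4. Bcl6yfp/+ 1 and naive 2 were set 5, Bcl6yfp/+ 2 and 3 with Bcl6+/+ 2 and 3 were set 6, and Bcl6+/+ 1 was set 7. The 4 arrays of set 6 lay closer together than any other arrays, with an SD of gene differences of 0.271 to 0.361 for each pair of them whatever the genotype, against at least 0.523 for every other pair of arrays. The labels do not say whether these 4 share a source or a preparation, and a mislabelled array among them was not tested. In the YFP-sorted groups the day 10 arrays carried the Y-linked transcript Kdm5d and the day 7 arrays carried Xist, so there day and the sex of the mice cannot be told apart. All Bcl6+/+ arrays carried Kdm5d. The CD4 T cell genes Cd3e (13.86 to 14.55) and Cd4 (13.29 to 14.34) were high on every array and the B cell gene Cd79a was at 2.08 to 2.77, near the floor of the scale. Of the 12 B cell markers 4 were kept. Cd22 was at 10.81 to 11.81 in YFP-positive, 9.44 to 11.52 in YFP-negative, 8.89 to 10.60 in Bcl6yfp/+ and 10.66 to 11.48 in Bcl6+/+ cells, against 2.84 to 5.35 in CXCR5lo PD-1lo and 2.20 and 2.22 in naive cells. Cd79b was at 5.26 to 5.36 in CXCR5lo PD-1lo cells and at most 2.81 on the other arrays, Cd74 at 5.33 to 10.51 and Ighm at 11.22 to 12.61 over all arrays. Their part in the replication differences was not tested. Lyz2, a myeloid gene, reached 10.98 on YFP-negative 1 and at most 6.76 on the others. CXCR5lo PD-1lo cells held the cytotoxic genes Nkg7 (11.09, 11.31 and 10.44) and Klrd1 (10.16, 11.32 and 10.68). Across the other arrays Nkg7 stood at 2.32 or lower, while Klrd1 was also present in naive cells (11.45 and 9.81). Summed over each marker list, on the log2 scale, CD4 T cell markers were at 16.3 to 17.1 on all arrays, B cell markers at 11.6 to 13.1 and erythroid markers at 3.57 to 3.78. The summed germinal centre B and plasma cell markers were at 12.09 and 11.76 in naive cells and 13.50 to 14.84 on the other arrays. Whether this difference bears on the replication genes was not tested. The summed myeloid and dendritic cell markers were at 12.95 on YFP-negative 1 and 5.88 to 8.21 on the others.

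Replication genes were detected in every group, naive cells included, and differed in how far they moved. Of the 43 genes, 36 stood at log2 4 or more on all 19 arrays and 25 averaged 10 or more. The median over the genes was 10.48 on the day 10 YFP-positive array and 12.09, 11.88 and 12.04 on the day 7 ones. YFP-negative cells had medians of 10.41 and 9.80 on day 10 and 10.95 and 10.90 on day 7. The medians were 11.52, 10.30 and 9.89 in CXCR5lo PD-1lo cells, 10.43, 11.25 and 11.18 in Bcl6yfp/+ cells, and 9.36 and 9.34 in naive cells. Bcl6+/+ cells had 10.91 and 11.17 on day 10 and 11.20 on day 7. The 3 day 7 YFP-positive arrays thus stood above all others. For 39 of the 43 genes the highest of the 19 arrays was one of these, 27 times YFP-positive 1 and 12 times YFP-positive 3. The lowest array was a naive one for 26 genes and YFP-negative 4, from day 10, for 12. Since RNA of many cells was pooled on each array, fewer cells in S phase and less RNA per cell cannot be told apart.

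**Figure D1:**
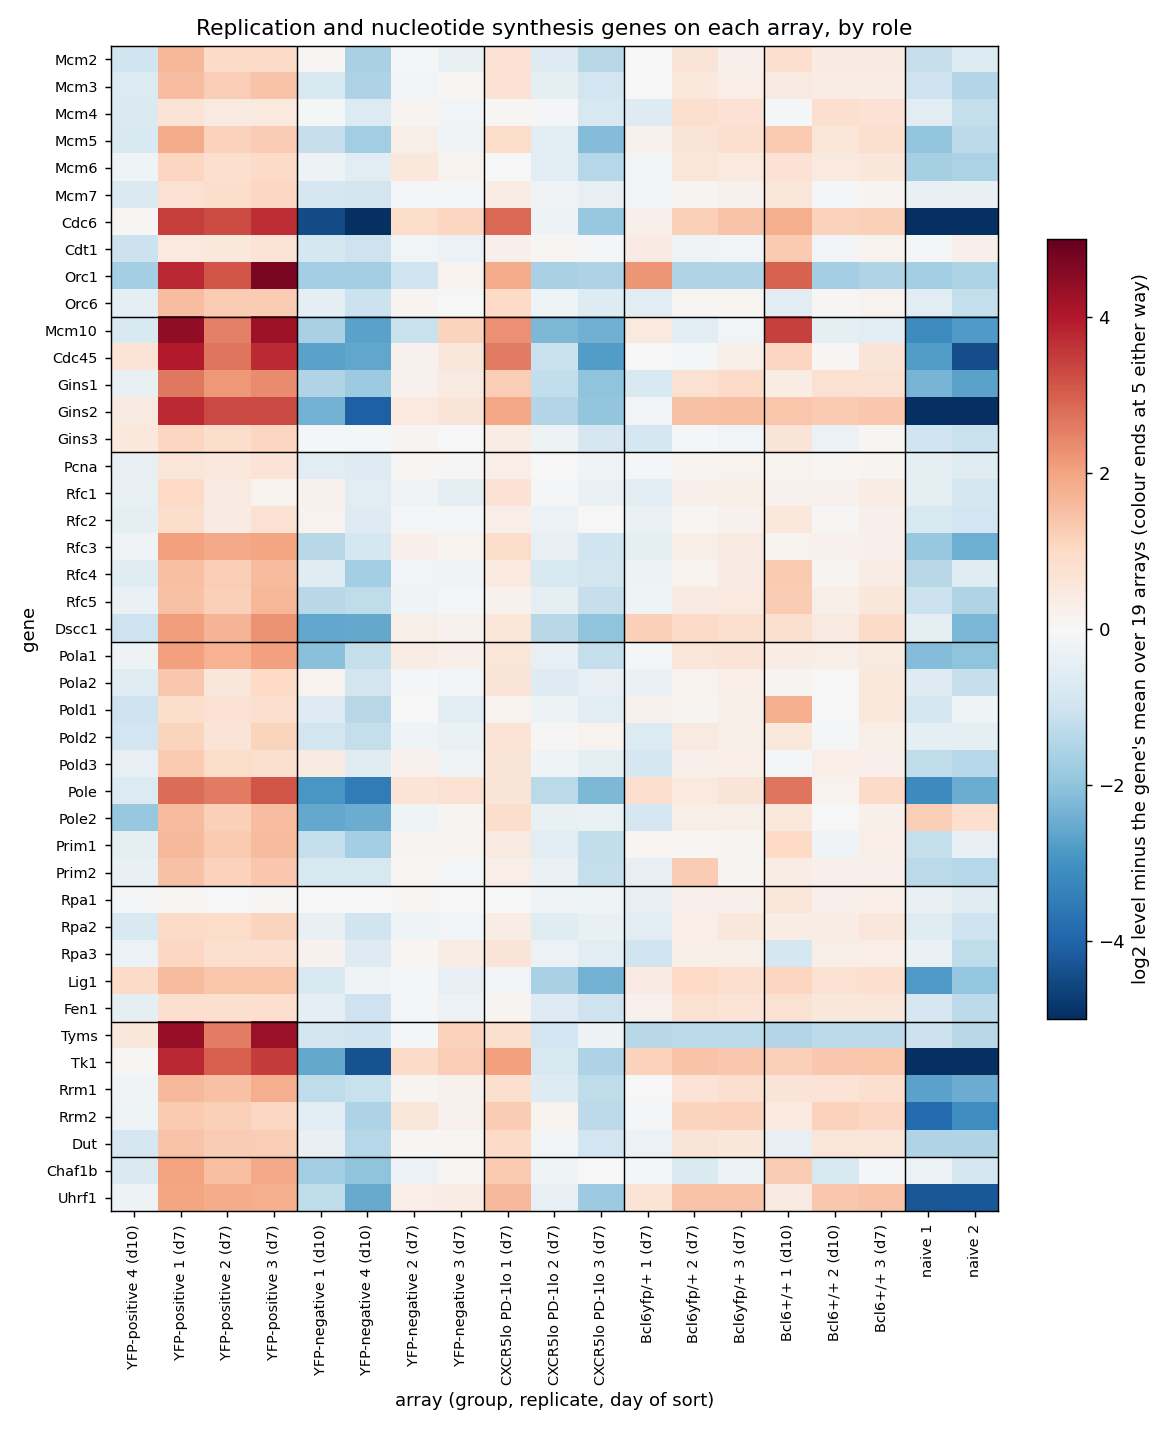
Level of each of the 43 replication and nucleotide synthesis genes (rows, grouped by role from licensing at the top to chromatin copying at the bottom) on each of the 19 arrays (columns, by group and day), as the log2 level minus the gene's own mean. The 3 day 7 YFP-positive arrays are high for nearly every gene, the naive arrays and the day 10 YFP-negative arrays are low, and Pole2 is an exception that is high in naive cells.

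The span between a gene's lowest and highest array had a median of 3.30 log2 over the 43 genes, against 1.89 over all genes kept. Tk1 (10.5), Gins2 (9.29), Cdc6 (9.21), Cdc45 (8.39) and Mcm10 (7.59) had the widest spans and Rpa1 (1.23) and Pcna (1.31) the narrowest. In all, 11 genes spanned over 5 log2 and 5 spanned under 2. Beside the chosen probe sets, 28 of the genes had another kept one, 39 in all, of which 38 were higher in YFP-positive than in YFP-negative cells and 39 higher in YFP-positive than in naive cells. Probe sets whose names end in s_at or x_at can also bind other transcripts of like sequence.

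The start regions of 6 of these genes show how unevenly E2F letters are spread over the list. Each is 300 bases of RefSeq sequence (GRCm38.p6), 250 before and 50 after the start of transcription, written 5′ to 3′ along the gene. Capitals mark the letters of the E2F motif (TTTCCCGC, TTTCGCGC, TTTGCCGC or TTTGGCGC) and of the CCAAT box (CCAAT), each on either strand, with overlapping matches run together. The regions lie at chr8:75109259-75109558, plus strand (Mcm5), chr11:98907901-98908200, plus strand (Cdc6), chr4:108579204-108579503, plus strand (Orc1), chr12:24708004-24708303, plus strand (Rrm2), chr2:132253131-132253430, minus strand (Pcna) and chr11:75348334-75348633, minus strand (Rpa1).
Mcm5: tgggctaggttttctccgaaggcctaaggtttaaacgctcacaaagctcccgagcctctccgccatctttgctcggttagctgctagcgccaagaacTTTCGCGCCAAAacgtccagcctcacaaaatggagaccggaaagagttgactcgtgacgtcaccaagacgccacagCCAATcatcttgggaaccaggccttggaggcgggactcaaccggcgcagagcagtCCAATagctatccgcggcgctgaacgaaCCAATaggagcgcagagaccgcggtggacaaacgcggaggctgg
Cdc6: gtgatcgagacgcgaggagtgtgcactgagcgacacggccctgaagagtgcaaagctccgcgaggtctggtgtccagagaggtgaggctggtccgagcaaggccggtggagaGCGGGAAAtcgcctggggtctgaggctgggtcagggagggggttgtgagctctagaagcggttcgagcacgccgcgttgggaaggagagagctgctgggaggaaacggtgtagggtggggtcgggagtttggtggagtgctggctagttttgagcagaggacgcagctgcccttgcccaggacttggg
Orc1: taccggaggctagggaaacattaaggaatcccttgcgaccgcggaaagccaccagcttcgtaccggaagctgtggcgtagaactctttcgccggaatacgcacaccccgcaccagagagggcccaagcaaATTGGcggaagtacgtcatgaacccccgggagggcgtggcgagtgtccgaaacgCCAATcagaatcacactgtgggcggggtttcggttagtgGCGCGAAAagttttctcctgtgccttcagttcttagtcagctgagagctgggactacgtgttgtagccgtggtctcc
Rrm2: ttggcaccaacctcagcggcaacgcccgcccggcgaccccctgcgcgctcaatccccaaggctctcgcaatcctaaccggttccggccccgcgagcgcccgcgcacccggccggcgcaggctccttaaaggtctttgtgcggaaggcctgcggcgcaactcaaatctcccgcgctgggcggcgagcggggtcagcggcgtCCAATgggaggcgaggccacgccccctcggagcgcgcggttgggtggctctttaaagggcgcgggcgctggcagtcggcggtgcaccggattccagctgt
Pcna: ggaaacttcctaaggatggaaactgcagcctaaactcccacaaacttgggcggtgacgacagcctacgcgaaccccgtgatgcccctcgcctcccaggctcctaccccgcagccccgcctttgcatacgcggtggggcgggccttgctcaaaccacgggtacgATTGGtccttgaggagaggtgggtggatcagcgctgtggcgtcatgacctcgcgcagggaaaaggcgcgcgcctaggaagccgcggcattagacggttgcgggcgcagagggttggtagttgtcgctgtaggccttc
Rpa1: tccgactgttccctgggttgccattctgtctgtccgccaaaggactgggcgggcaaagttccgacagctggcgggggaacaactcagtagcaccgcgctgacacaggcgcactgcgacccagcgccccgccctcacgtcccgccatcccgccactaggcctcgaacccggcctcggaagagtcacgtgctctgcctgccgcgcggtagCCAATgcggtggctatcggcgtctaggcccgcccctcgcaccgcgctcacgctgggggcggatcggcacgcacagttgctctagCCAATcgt
Mcm5 has 2 overlapping E2F matches, the outermost 153 bases before the start, and 3 CCAAT boxes. Cdc6 has a single E2F match 138 bases before the start, and Orc1 has one 27 bases before it with 2 CCAAT boxes farther out. Rrm2 and Pcna show a CCAAT box and none of the 4 E2F letter strings in this window, and Rpa1, the steadiest gene of the list, has 2 CCAAT boxes.

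Start regions were found for 36 of the 43 genes. E2F letters stood in 15 of these 36 (41.7%), against 2.6% of all 27025 genes with a start region and 5.08% of those kept on the arrays. The share was 31.2% among 32 other replication genes, 7.41% among 27 other nucleotide synthesis genes and 4.76% among 21 mitosis genes. CCAAT boxes stood in 61.1% of the replication list, against 41.1% of all genes and 43.5% of genes kept, and in 85.7% of the mitosis genes, 53.1% of the other replication genes and 37% of the other nucleotide synthesis genes. The median GC content was 60.7% for the replication list, 52.7% for all genes and 61.0% for genes kept. Genes with E2F letters had a median span over the arrays of 4.04 log2 (n = 15) and those without 3.15 (n = 21). Tk1, with the widest span (10.5), had no E2F letters, nor did Cdc45 (8.39), Mcm10 (7.59) or Tyms (5.80). Cdc6 (9.21) and Orc1 (6.48) had them, as did the narrow Mcm7 (1.95), Gins3 (2.18) and Cdt1 (2.36). Rpa1 (1.23) and Pcna (1.31) had none. The difference in span was not tested. These matches describe letters in a window, and binding of E2F was not measured.

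Origin licensing. Mcm2 and Mcm5 encode subunits of the replicative helicase. Mcm2 stood at 10.48 on the day 10 YFP-positive array and 13.17, 12.44 and 12.43 on the day 7 arrays, against 11.56 and 9.86 on the day 10 YFP-negative arrays and 11.43 and 11.10 on the day 7 arrays. Elsewhere Mcm2 was at 12.20, 10.86 and 10.09 in CXCR5lo PD-1lo cells, 11.53, 12.12 and 11.75 in Bcl6yfp/+ cells, 12.32 and 11.89 on day 10 and 11.93 on day 7 in Bcl6+/+ cells, and 10.32 and 10.83 in naive cells. Its day 7 YFP-positive arrays lay above every other array, and its day 10 YFP-positive array lay between the 2 naive ones. Mcm5 had 10.85 on the day 10 YFP-positive array and 13.47, 12.74 and 12.88 on the day 7 arrays, against 10.43 and 9.84 on the day 10 YFP-negative arrays and 11.90 and 11.42 on the day 7 arrays. The other groups gave Mcm5 levels of 12.53, 11.06 and 9.44 in CXCR5lo PD-1lo cells, 11.83, 12.23 and 12.39 in Bcl6yfp/+ cells, 12.89 and 12.21 on day 10 and 12.42 on day 7 in Bcl6+/+ cells, and 9.63 and 10.27 in naive cells. CXCR5lo PD-1lo cells varied most for Mcm5, with array 1 near the YFP-positive cells and array 3 below the naive cells.

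Cdc6, which loads the helicase at origins and is low in resting cells, separated the groups most widely of the licensing genes. It stood at 7.98 on the day 10 YFP-positive array and 11.37, 11.16 and 11.62 on the day 7 arrays, against 3.43 and 2.41 on the day 10 YFP-negative arrays and 8.85 and 8.98 on the day 7 arrays. The day 10 YFP-negative arrays were thus as low as naive cells. Levels of Cdc6 were 10.73, 7.67 and 6.04 in CXCR5lo PD-1lo cells, 8.18, 9.10 and 9.33 in Bcl6yfp/+ cells, 9.74 and 9.06 on day 10 and 9.12 on day 7 in Bcl6+/+ cells, and 2.71 and 2.95 in naive cells. The Bcl6yfp/+ and Bcl6+/+ arrays kept to a narrow band, day 10 included. Cdt1, the partner of CDC6 in loading, varied less. Cdt1 had 10.51 on the day 10 YFP-positive array and 12.04, 12.11 and 12.26 on the day 7 arrays, against 10.68 and 10.52 on the day 10 YFP-negative arrays and 11.43 and 11.27 on the day 7 arrays. Across the remaining arrays Cdt1 was at 11.82, 11.64 and 11.48 in CXCR5lo PD-1lo cells, 11.98, 11.39 and 11.43 in Bcl6yfp/+ cells, 12.87 and 11.42 on day 10 and 11.73 on day 7 in Bcl6+/+ cells, and 11.51 and 11.82 in naive cells. Naive cells thus lay within the range of the groups from immunized mice for this gene.

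Orc1, the largest subunit of the origin recognition complex and the one that cycles with division, lay near the floor of the scale on many arrays. It was at 2.23 on the day 10 YFP-positive array and 7.70, 7.07 and 8.64 on the day 7 arrays, against 2.22 and 2.16 on the day 10 YFP-negative arrays and 2.93 and 4.10 on the day 7 arrays. Orc1 levels were 5.77, 2.30 and 2.36 in CXCR5lo PD-1lo cells, 6.12, 2.40 and 2.43 in Bcl6yfp/+ cells, 6.88 and 2.22 on day 10 and 2.41 on day 7 in Bcl6+/+ cells, and 2.17 and 2.32 in naive cells. It was thus high on the day 7 YFP-positive arrays, moderate on CXCR5lo PD-1lo 1, Bcl6yfp/+ 1 and Bcl6+/+ 1, and at the floor on the 4 arrays of set 6. The other licensing genes, Mcm3, Mcm4, Mcm6, Mcm7 and Orc6, spanned 1.95 to 3.10 log2 over the arrays.

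Helicase activation. CDC45 and the 4 GINS subunits turn the loaded MCM ring into the working helicase, and MCM10 is needed for that step. Cdc45 stood at 7.76 on the day 10 YFP-positive array and 11.05, 9.77 and 10.81 on the day 7 arrays, against 4.40 and 4.49 on the day 10 YFP-negative arrays and 7.31 and 7.66 on the day 7 arrays. The 2 YFP-sorted groups did not overlap for Cdc45, although the day 10 YFP-positive array was close to the day 7 YFP-negative ones. In the other groups Cdc45 was at 9.69, 5.97 and 4.28 in CXCR5lo PD-1lo cells, 7.12, 6.98 and 7.38 in Bcl6yfp/+ cells, 8.16 and 7.15 on day 10 and 7.73 on day 7 in Bcl6+/+ cells, and 4.29 and 2.66 in naive cells. Gins1 had 9.09 on the day 10 YFP-positive array and 12.09, 11.63 and 11.81 on the day 7 arrays, against 7.97 and 7.65 on the day 10 YFP-negative arrays and 9.68 and 9.91 on the day 7 arrays. Its remaining levels were 10.69, 8.22 and 7.45 in CXCR5lo PD-1lo cells, 8.68, 10.21 and 10.41 in Bcl6yfp/+ cells, 9.84 and 10.21 on day 10 and 10.23 on day 7 in Bcl6+/+ cells, and 7.15 and 6.77 in naive cells. Gins1 on the day 10 YFP-positive array lay between the day 10 and the day 7 YFP-negative arrays. Mcm10 was at 4.60 on the day 10 YFP-positive array and 9.81, 7.89 and 9.62 on the day 7 arrays, against 3.74 and 2.68 on the day 10 YFP-negative arrays and 4.27 and 6.50 on the day 7 arrays. Mcm10 levels elsewhere were 7.66, 3.13 and 2.98 in CXCR5lo PD-1lo cells, 5.88, 4.83 and 5.23 in Bcl6yfp/+ cells, 8.79 and 4.86 on day 10 and 4.83 on day 7 in Bcl6+/+ cells, and 2.22 and 2.53 in naive cells. One Bcl6+/+ array from day 10, the only array of set 7, reached 8.79, below YFP-positive 1 and 3 alone.

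Clamp and clamp loaders. PCNA, the sliding clamp, was one of the least variable members. Pcna had 13.53 on the day 10 YFP-positive array and 14.55, 14.48 and 14.60 on the day 7 arrays, against 13.39 and 13.30 on the day 10 YFP-negative arrays and 13.99 and 13.996 on the day 7 arrays. Its levels were 14.29, 13.91 and 13.76 in CXCR5lo PD-1lo cells, 13.86, 14.07 and 14.11 in Bcl6yfp/+ cells, 14.12 and 14.04 on day 10 and 14.07 on day 7 in Bcl6+/+ cells, and 13.43 and 13.32 in naive cells. Even so, all 3 day 7 YFP-positive arrays were above the other 16. RFC subunits open the clamp, and DSCC1 belongs to an alternative loader that also serves sister chromatid cohesion. Rfc3 stood at 8.50 on the day 10 YFP-positive array and 10.74, 10.59 and 10.66 on the day 7 arrays, against 7.31 and 7.81 on the day 10 YFP-negative arrays and 8.95 and 8.87 on the day 7 arrays. Levels of Rfc3 in the other groups were 9.60, 8.26 and 7.70 in CXCR5lo PD-1lo cells, 8.19, 8.97 and 9.13 in Bcl6yfp/+ cells, 8.84 and 8.88 on day 10 and 8.92 on day 7 in Bcl6+/+ cells, and 6.78 and 6.26 in naive cells. Naive cells had the 2 lowest Rfc3 values. Dscc1 was at 7.50 on the day 10 YFP-positive array and 10.65, 10.25 and 10.80 on the day 7 arrays, against 5.95 and 5.98 on the day 10 YFP-negative arrays and 8.85 and 8.75 on the day 7 arrays. It had 9.14, 7.16 and 6.53 in CXCR5lo PD-1lo cells, 9.74, 9.50 and 9.35 in Bcl6yfp/+ cells, 9.35 and 8.99 on day 10 and 9.51 on day 7 in Bcl6+/+ cells, and 8.10 and 6.28 in naive cells. One naive array lay near the day 10 YFP-negative arrays and the other well above them.

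Polymerases and primase. The catalytic subunits Pola1 (priming) and Pole (leading strand), the accessory subunit Pole2 and the primase Prim1 did not move alike. Pola1 had 8.57 on the day 10 YFP-positive array and 10.89, 10.58 and 10.88 on the day 7 arrays, against 6.73 and 7.64 on the day 10 YFP-negative arrays and 9.20 and 9.09 on the day 7 arrays. Pola1 was at 9.41, 8.43 and 7.62 in CXCR5lo PD-1lo cells, 8.72, 9.44 and 9.47 in Bcl6yfp/+ cells, 9.18 and 9.11 on day 10 and 9.28 on day 7 in Bcl6+/+ cells, and 6.65 and 6.81 in naive cells. The day 7 YFP-positive arrays stood apart at the top. Pole was at 7.56 on the day 10 YFP-positive array and 11.02, 10.83 and 11.41 on the day 7 arrays, against 5.32 and 4.75 on the day 10 YFP-negative arrays and 8.94 and 9.01 on the day 7 arrays. Its other levels were 8.87, 6.91 and 5.98 in CXCR5lo PD-1lo cells, 9.08, 8.71 and 8.88 in Bcl6yfp/+ cells, 10.91 and 8.42 on day 10 and 9.22 on day 7 in Bcl6+/+ cells, and 5.08 and 5.76 in naive cells. As with Cdc6, the day 10 YFP-negative arrays were close to naive cells.

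Pole2 departed from this order. It stood at 6.70 on the day 10 YFP-positive array and 10.18, 9.79 and 10.15 on the day 7 arrays, against 6.03 and 6.11 on the day 10 YFP-negative arrays and 8.39 and 8.73 on the day 7 arrays. Naive cells had 9.82 and 9.40, close to the day 7 YFP-positive arrays and above all YFP-negative arrays, while Pole2 was at 9.49, 8.23 and 8.25 in CXCR5lo PD-1lo cells, 7.76, 8.88 and 8.88 in Bcl6yfp/+ cells and 9.14 and 8.57 on day 10 and 8.87 on day 7 in Bcl6+/+ cells. It is the member with the lowest difference from naive cells in each of the 5 comparisons. Prim1 had 11.64 on the day 10 YFP-positive array and 13.72, 13.40 and 13.70 on the day 7 arrays, against 10.93 and 10.42 on the day 10 YFP-negative arrays and 12.26 and 12.25 on the day 7 arrays. Across the other groups Prim1 was at 12.55, 11.55 and 10.88 in CXCR5lo PD-1lo cells, 12.21, 12.15 and 12.26 in Bcl6yfp/+ cells, 13.11 and 11.93 on day 10 and 12.44 on day 7 in Bcl6+/+ cells, and 10.91 and 11.68 in naive cells. The naive arrays overlapped the day 10 YFP-negative ones for this gene.

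Single-strand binding and lagging-strand joining. RPA coats single-stranded DNA, FEN1 trims and LIG1 seals Okazaki fragments. Rpa2 stood at 10.48 on the day 10 YFP-positive array and 12.23, 12.16 and 12.37 on the day 7 arrays, against 10.89 and 10.26 on the day 10 YFP-negative arrays and 11.05 and 11.13 on the day 7 arrays. Rpa2 was at 11.63, 10.64 and 10.88 in CXCR5lo PD-1lo cells, 10.75, 11.60 and 11.84 in Bcl6yfp/+ cells, 11.64 and 11.63 on day 10 and 11.83 on day 7 in Bcl6+/+ cells, and 10.66 and 10.22 in naive cells. The largest RPA subunit, Rpa1, instead stayed between 13.27 and 14.51 on all 19 arrays and was highest in Bcl6+/+ cells. Fen1 had 12.53 on the day 10 YFP-positive array and 13.85, 13.79 and 13.82 on the day 7 arrays, against 12.52 and 11.95 on the day 10 YFP-negative arrays and 12.90 and 12.69 on the day 7 arrays. Fen1 levels in the other groups were 13.14, 12.34 and 11.96 in CXCR5lo PD-1lo cells, 13.21, 13.76 and 13.67 in Bcl6yfp/+ cells, 13.76 and 13.54 on day 10 and 13.55 on day 7 in Bcl6+/+ cells, and 12.14 and 11.69 in naive cells. The unsplit CXCR5hi PD-1hi cells of both genotypes were near the day 7 YFP-positive arrays, apart from Bcl6yfp/+ 1. Lig1 was at 10.98 on the day 10 YFP-positive array and 11.58, 11.41 and 11.42 on the day 7 arrays, against 9.26 and 9.85 on the day 10 YFP-negative arrays and 9.96 and 9.63 on the day 7 arrays. Lig1 stood at 9.88, 8.39 and 7.65 in CXCR5lo PD-1lo cells, 10.43, 11.02 and 10.86 in Bcl6yfp/+ cells, 11.11 and 10.79 on day 10 and 10.86 on day 7 in Bcl6+/+ cells, and 7.17 and 8.08 in naive cells. All 4 YFP-positive arrays, day 10 included, were above all YFP-negative, CXCR5lo PD-1lo and naive arrays, and of the 43 genes the same held for Gins3 alone.

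Nucleotide synthesis. Thymidylate synthase (Tyms) and cytosolic thymidine kinase (Tk1) make thymidine nucleotides, ribonucleotide reductase (Rrm1 and Rrm2) makes all deoxynucleotides, and DUT removes dUTP. Tyms had 4.38 on the day 10 YFP-positive array and 8.17, 6.38 and 8.15 on the day 7 arrays, against 2.92 and 2.82 on the day 10 YFP-negative arrays and 3.77 and 4.98 on the day 7 arrays. The other Tyms levels were 4.62, 2.88 and 3.56 in CXCR5lo PD-1lo cells, 2.43, 2.53 and 2.50 in Bcl6yfp/+ cells, 2.37 and 2.52 on day 10 and 2.53 on day 7 in Bcl6+/+ cells, and 2.77 and 2.43 in naive cells. Every Bcl6yfp/+ and Bcl6+/+ array was at the floor for this probe set, as were naive cells. Tk1 stood at 8.96 on the day 10 YFP-positive array and 12.67, 11.88 and 12.42 on the day 7 arrays, against 6.35 and 4.57 on the day 10 YFP-negative arrays and 9.87 and 10.14 on the day 7 arrays. In the rest Tk1 was at 10.96, 8.12 and 7.35 in CXCR5lo PD-1lo cells, 10.05, 10.34 and 10.26 in Bcl6yfp/+ cells, 10.09 and 10.26 on day 10 and 10.28 on day 7 in Bcl6+/+ cells, and 2.16 and 2.53 in naive cells. Naive cells were at the floor, and the day 10 YFP-negative arrays lay between them and all other arrays.

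Rrm1, the large subunit of the reductase, had 10.75 on the day 10 YFP-positive array and 12.56, 12.38 and 12.73 on the day 7 arrays, against 9.67 and 9.80 on the day 10 YFP-negative arrays and 11.08 and 11.15 on the day 7 arrays. Rrm1 was at 11.72, 10.28 and 9.66 in CXCR5lo PD-1lo cells, 10.91, 11.62 and 11.73 in Bcl6yfp/+ cells, 11.59 and 11.61 on day 10 and 11.71 on day 7 in Bcl6+/+ cells, and 8.24 and 8.44 in naive cells. Rrm2, the small subunit that limits the enzyme outside S phase, stood at 12.71 on the day 10 YFP-positive array and 14.24, 14.12 and 13.96 on the day 7 arrays, against 12.38 and 11.39 on the day 10 YFP-negative arrays and 13.51 and 13.13 on the day 7 arrays. Its levels elsewhere were 14.19, 13.12 and 11.61 in CXCR5lo PD-1lo cells, 12.88, 14.03 and 14.07 in Bcl6yfp/+ cells, 13.43 and 14.08 on day 10 and 13.97 on day 7 in Bcl6+/+ cells, and 9.02 and 9.82 in naive cells. For both subunits naive cells were below every array of immunized mice. Dut had 11.46 on the day 10 YFP-positive array and 13.72, 13.58 and 13.54 on the day 7 arrays, against 11.93 and 10.90 on the day 10 YFP-negative arrays and 12.41 and 12.38 on the day 7 arrays. Dut levels were 13.25, 12.17 and 11.35 in CXCR5lo PD-1lo cells, 12.02, 12.95 and 12.87 in Bcl6yfp/+ cells, 11.91 and 12.91 on day 10 and 12.90 on day 7 in Bcl6+/+ cells, and 10.79 and 10.79 in naive cells. The day 10 YFP-positive array was at the level of CXCR5lo PD-1lo 3.

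Chromatin copying. CHAF1B belongs to the histone chaperone CAF-1, and UHRF1 brings maintenance methylation to new DNA. Chaf1b was at 7.69 on the day 10 YFP-positive array and 10.46, 9.93 and 10.32 on the day 7 arrays, against 6.70 and 6.42 on the day 10 YFP-negative arrays and 8.15 and 8.51 on the day 7 arrays. Its other levels were 9.73, 8.23 and 8.44 in CXCR5lo PD-1lo cells, 8.35, 7.72 and 8.15 in Bcl6yfp/+ cells, 9.72 and 7.64 on day 10 and 8.33 on day 7 in Bcl6+/+ cells, and 8.14 and 7.55 in naive cells. Naive cells lay above the day 10 YFP-negative arrays for Chaf1b. Uhrf1 had 11.45 on the day 10 YFP-positive array and 13.66, 13.53 and 13.50 on the day 7 arrays, against 10.41 and 9.19 on the day 10 YFP-negative arrays and 12.04 and 12.08 on the day 7 arrays. Elsewhere Uhrf1 stood at 13.31, 11.29 and 9.89 in CXCR5lo PD-1lo cells, 12.39, 13.13 and 13.14 in Bcl6yfp/+ cells, 12.16 and 13.04 on day 10 and 13.12 on day 7 in Bcl6+/+ cells, and 7.41 and 7.45 in naive cells. The naive level of Uhrf1 lay below that of all immunized groups.

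**Figure D2:**
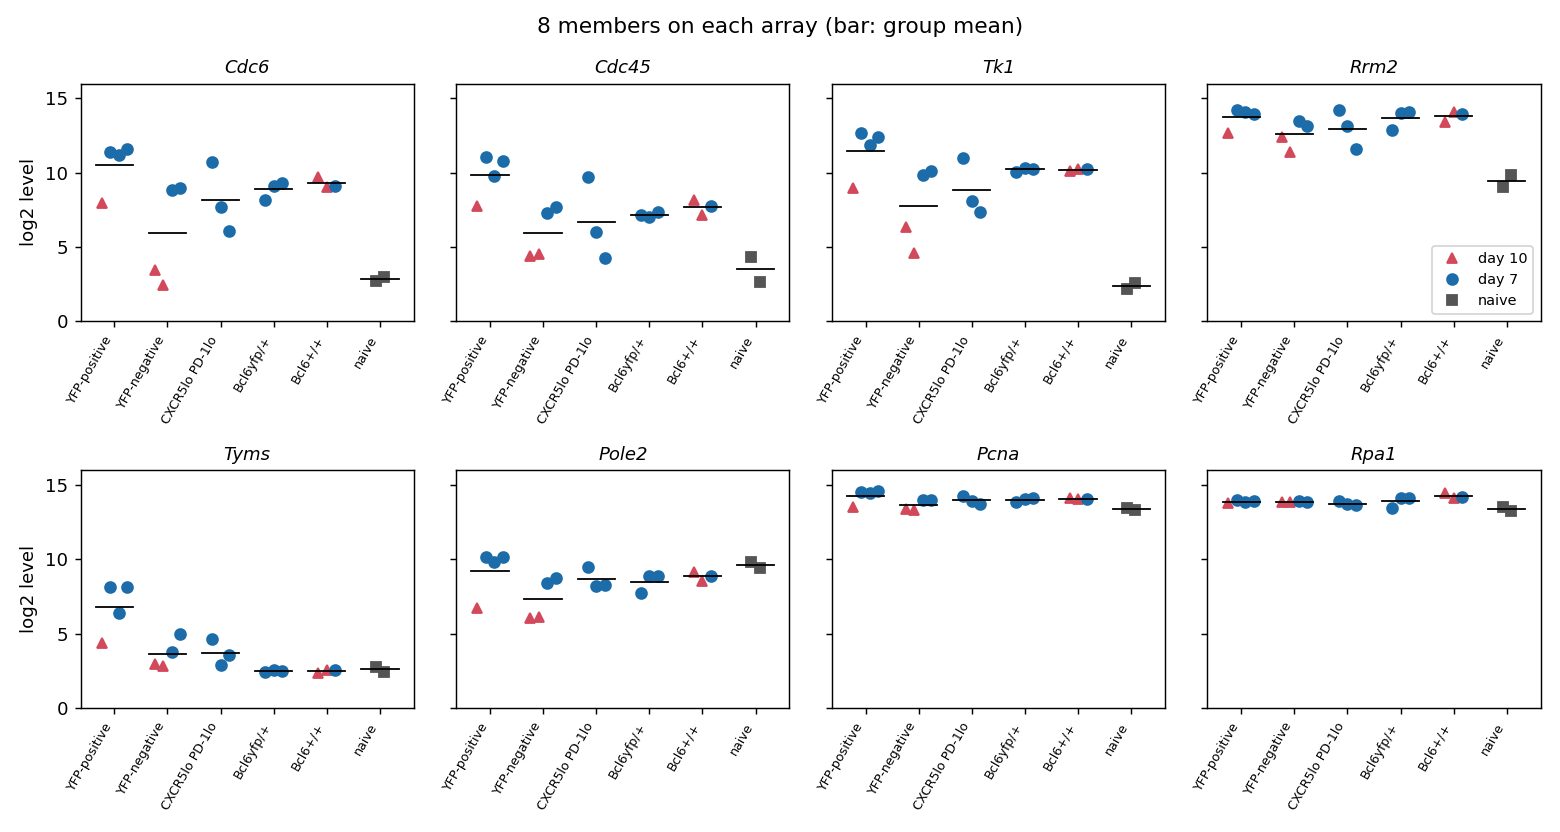
Log2 level (vertical axis) of 8 members on each array, by sorted group (horizontal axis), with triangles for day 10, circles for day 7, squares for naive cells and a bar at the group mean. Tk1 and Rrm2 separate naive cells from the rest, Cdc6 and Cdc45 are also low on the day 10 YFP-negative arrays, Tyms is above the floor in the YFP-positive cells and at it in the Bcl6yfp/+ and Bcl6+/+ cells, Pole2 is high in naive cells, and Pcna and Rpa1 vary little.

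YFP-positive cells, the Tfh cells with BCL6 reporter expression, had higher levels than YFP-negative Tfh cells for 42 of the 43 genes, with Rpa1 the exception. The median difference was 1.48 log2, against 0.00 over all genes, and 50.3% of all genes had a difference above 0. By role the median was 3.68 for helicase activation, 2.13 for chromatin copying, 1.68 for nucleotide synthesis, 1.59 for the clamp and its loaders, 1.30 for polymerases, 1.21 for licensing and 0.98 for single-strand binding and joining. No gene of the list passed limma's test with Benjamini-Hochberg adjustment over all genes (0.121% of all genes called in either direction), while 34 of 43 had an unadjusted p under 0.05, against 7.92% of all genes.

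The 3 highest differences were those of Cdc6, Gins2 and Cdc45. Cdc6 averaged 10.53 ± 1.71 in YFP-positive cells and 5.92 ± 3.49 in YFP-negative cells (SD, n = 4 each), a difference of 4.61 (SE 1.34, limma adjusted p = 0.21). Gins2, a GINS subunit, differed by 4.01 (SE 1.03, limma adjusted p = 0.161), and Cdc45 by 3.88 (SE 1.03, limma adjusted p = 0.177). The YFP-positive group holds 1 day 10 array of 4 and the YFP-negative group 2 of 4. With day 7 and naive arrays alone the 3 highest were Orc1 (4.29, SE 1.19), Mcm10 (3.72, SE 1.21) and Tyms (3.19, SE 0.60), and Cdc6 had 2.47 (SE 0.96). Over all arrays Rpa1 (-0.004, SE 0.17), Mcm4 (0.40, SE 0.38) and Rfc2 (0.53, SE 0.28) were the 3 lowest. Groups did not overlap for Cdc45, Gins3 and Lig1, with the YFP-positive cells higher, a pattern shared by 1.58% of all genes.

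The differences recurred in each set, where both arrays have nearly the same value distribution. In set 2 (both day 7) 42 of 43 genes were higher in the YFP-positive array, with a median of 1.15. Set 3 (both day 7) had 43 of 43, with a median of 1.42, and set 4 (both day 10) had 40 of 43, with a median of 0.65. Set 1 paired a day 7 YFP-positive with a day 10 YFP-negative array and had 43 of 43, with a median of 2.25. Over the 4 sets 49.3% to 54.2% of all genes were higher. Among day 7 arrays alone, all YFP-positive values exceeded all YFP-negative values in 42 of 43 genes, against 17.4% of all genes.

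With the replicate number as a block, Tyms alone of the list was higher past the threshold (3.15, SE 0.50, limma adjusted p = 0.0226, with 0.312% of all genes called higher). With the normalization set as a block 33 genes were (8.38% of all genes called higher), with the same differences and a smaller spread, led by Cdc6 (limma adjusted p = 0.0491) and Gins2 (limma adjusted p = 0.0273). Without YFP-positive array 4 the count was 29 of 43 (2.67% of all genes called higher), and with day 7 and naive arrays alone it was 0 (0.121% of all genes called higher by limma, and 36 of the 43 genes with an unadjusted p under 0.05).

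**Figure D3:**
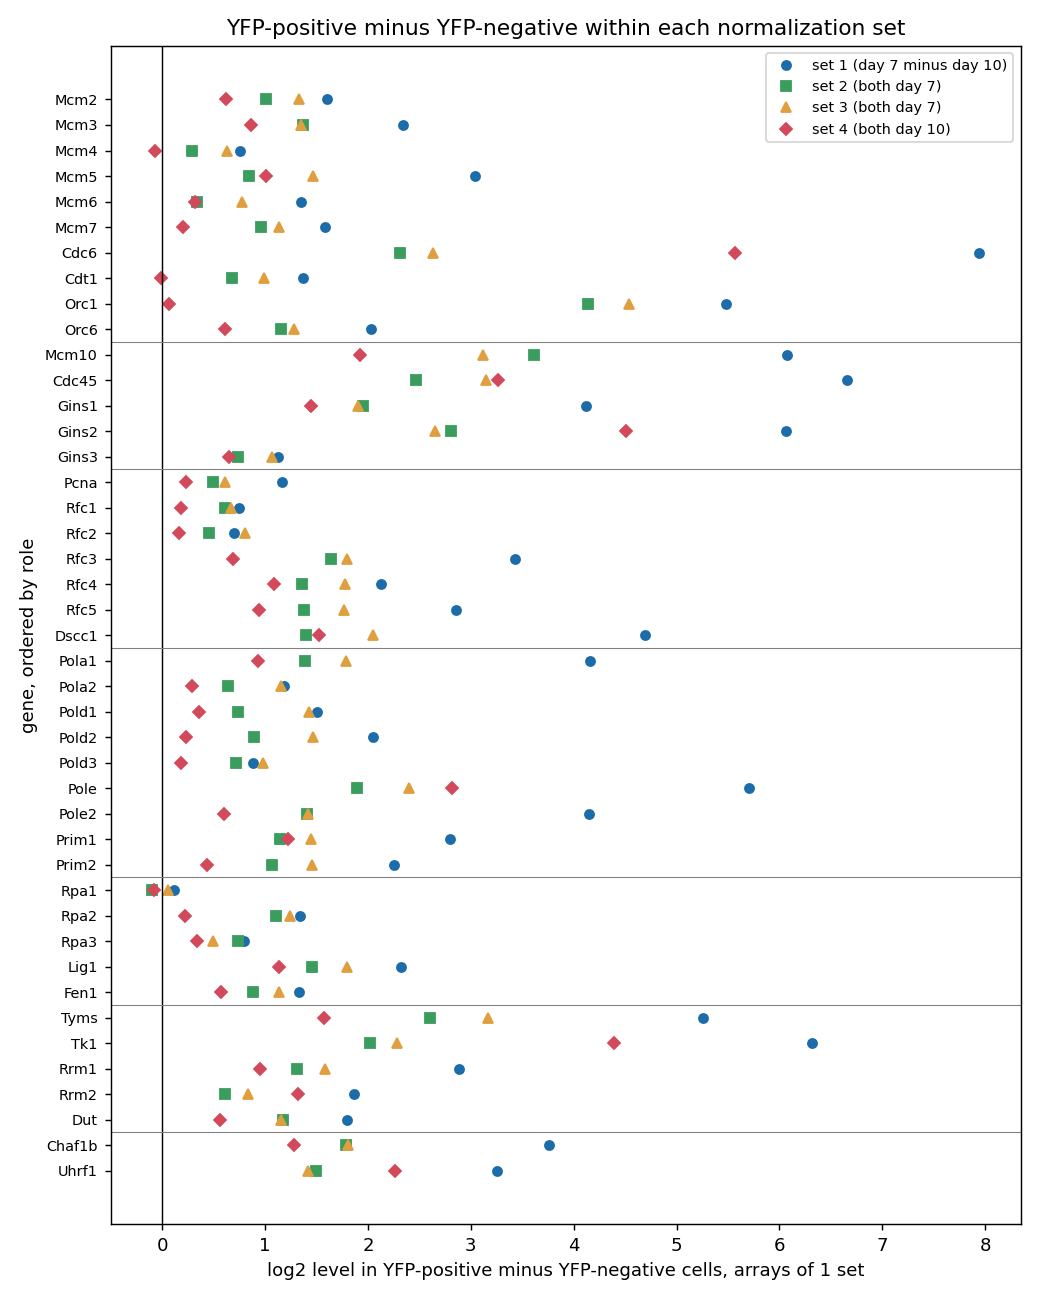
Difference in log2 level, YFP-positive minus YFP-negative, for each of the 43 genes (vertical axis, by role) within each of 4 normalization sets (symbols; set 1 pairs day 7 with day 10). Nearly all points lie right of 0, Cdc6, Cdc45 and Tk1 reach furthest, and Rpa1 stays near 0.

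Against CXCR5lo PD-1lo cells, the non-Tfh cells of the same response, YFP-positive cells were higher for all 43 genes (43.7% of all genes had a difference above 0), with a median of 1.14 against -0.07 over all genes. Passing limma's test with Benjamini-Hochberg adjustment were 4 genes, all of which rose (5.17% of all genes called higher). Lig1 rose 6.55-fold (log2 2.71, SE 0.39, limma adjusted p = 0.000184). Tyms rose by 3.09 (SE 0.73, limma adjusted p = 0.0107), Mcm6 by 1.32 (SE 0.36, limma adjusted p = 0.0274) and Gins3 by 1.14 (SE 0.29, limma adjusted p = 0.016). When all kept probe sets of a gene were averaged, Tyms rose by 1.91 (SE 0.58, limma adjusted p = 0.0422). Gins3 then rose by 1.60, Mcm6 by 1.34 and Lig1 by 2.71. Mcm10 (3.39, SE 1.36), Cdc45 (3.20, SE 1.11) and Gins2 (3.17, SE 1.11) had larger differences that did not pass. Cdt1 (0.09, SE 0.41), Rpa1 (0.13, SE 0.19) and Pold2 (0.18, SE 0.43) were the lowest.

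The 43 genes were higher in each of sets 1, 2 and 3, with medians of 0.73, 1.58 and 2.38. CXCR5lo PD-1lo array 1 was the nearest to the YFP-positive cells and array 3 the farthest. Since this group holds day 7 arrays alone, the day 10 YFP-positive array enters the comparison with no partner. With the replicate block 31 genes rose (11.2% of all genes called higher), and with day 7 and naive arrays alone 29 did (6.57% of all genes called higher). Without CXCR5lo PD-1lo array 2 the count was 1, which was Lig1 (2.99% of all genes called higher), and without YFP-positive array 4 it was 25 (6.17%). Of 7 CD8 T and NK cell markers 4 were kept, and 3 of them (Nkg7, Klrd1 and Klrk1) fell in YFP-positive cells, while Cd8a and Ncr1 were near the floor on every array. The fall of these 3 was not set against the share of all genes called lower. The summed level of these 7 genes, on the log2 scale, was 6.61 to 7.27 in YFP-positive cells and 11.6 to 12.4 in CXCR5lo PD-1lo cells. Their part in the replication differences was not tested.

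Differences between YFP-negative Tfh cells and CXCR5lo PD-1lo cells ran both ways. The difference was above 0 for 8 of the 43 genes (40.3% of all genes), with a median of -0.28 against -0.09 over all genes. None passed limma's test with Benjamini-Hochberg adjustment (6.53% of all genes called in either direction) and 2 had an unadjusted p under 0.05 (16.1% of all genes). Lig1 (1.04, SE 0.39, limma adjusted p = 0.157), Mcm6 (0.63, SE 0.36) and Gins3 (0.25, SE 0.29) were the highest, and Cdc6 (-2.23, SE 1.45), Chaf1b (-1.36, SE 0.68) and Pole2 (-1.34, SE 0.79) the lowest. With day 7 and naive arrays alone the median over the list was 0.31 and the difference of Cdc6 0.77, both with the sign turned. In sets 2 and 3, where both arrays were from day 7, 39 and 38 of the 43 genes were higher in YFP-negative cells, with medians of 0.56 and 1.05. In set 1 the YFP-negative array was from day 10, 0 of 43 genes were higher, and the median was -1.52. Without CXCR5lo PD-1lo array 1, Lig1 passed the threshold (1.66, SE 0.31, limma adjusted p = 0.00301, with 2.88% of all genes called higher).

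Cells with and without the reporter allele were also compared. All 3 Bcl6yfp/+ arrays are from day 7 and 2 of the 3 Bcl6+/+ arrays from day 10, so the comparison does not isolate the allele. In CXCR5hi PD-1hi cells Bcl6yfp/+ had lower levels than Bcl6+/+ for 36 of 43 genes (the difference was above 0 in 11.3% of all genes), with a median of -0.25, while the median over all genes was -0.26. After quantile normalization of all arrays the medians were -0.02 for the list and -0.05 for all genes. None of the 43 genes passed limma's test with Benjamini-Hochberg adjustment (0% of all genes called), and 0 had an unadjusted p under 0.05, against 2.89% of all genes. Dscc1 (0.25, SE 0.94), Uhrf1 (0.12, SE 0.83) and Dut (0.04, SE 0.59) were the highest, and Mcm10 (-0.85, SE 1.45), Pole (-0.62, SE 1.18) and Pold1 (-0.57, SE 0.51) the lowest. With day as a covariate the median was -0.89, and Dscc1 (-1.23), Uhrf1 (-1.04) and Dut (-0.76) turned sign. That fit shares 1 day slope among the groups. The median day difference over the list was 0.01 for Bcl6+/+ cells, against -1.92 (YFP-positive) and -0.999 (YFP-negative). The -0.89 thus carries a slope that the Bcl6+/+ list median did not show. Day 7 and naive arrays alone leave 1 Bcl6+/+ array, and gave -0.23 for Uhrf1, -0.28 for Dut and 0.48 for Mcm10. The standard errors of the first fit leave room for differences of a log2 unit or more in several genes. Across the genotypes within set 6 the median difference ran between -0.02 and 0.15. Without set 6 a single array of each genotype was left and Rpa1 fell by 1.04 in Bcl6yfp/+ cells (SE 0.26, limma adjusted p = 0.0331, with 9.66% of all genes called in either direction), and the lone arrays are there assumed to vary like the other groups.

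Against naive cells, which are quiescent, the median difference over the list was above 0 in all 5 groups of immunized mice. The comparisons share the same 2 naive arrays, and the median over all genes was itself 0.37 to 0.64 above 0, falling to between -0.08 and 0.10 after quantile normalization of all arrays. YFP-positive cells had the largest median over the list, 2.12 (0.39 over all genes), and 30 genes rose by limma's test with Benjamini-Hochberg adjustment (22.4% of all genes called higher). The medians were 1.61 in Bcl6+/+ cells with 24 that rose (31.5% of all genes called higher) and 1.40 in Bcl6yfp/+ cells with 13 (15.4%). CXCR5lo PD-1lo cells had 0.95 with 5 (10.3%), and YFP-negative cells 0.75 with 8 (16.5%), so that in both the count was near the share of all genes. Without naive 1 the count was 1 in each of these groups (6.24% and 11.5% of all genes called higher). Their order also turned with day: with day 7 and naive arrays alone YFP-negative cells had a median of 1.22 with 14 that rose (12.7% of all genes called higher), and CXCR5lo PD-1lo cells had 0.95 with 8 (9.42%). No gene of the list fell by limma's test in any of the 5 over all arrays. Pole2 fell in YFP-negative cells after quantile normalization (-3.04, SE 0.93, limma adjusted p = 0.0239, with 28.1% of all genes called in either direction) and without YFP-negative array 3 (-2.77, SE 0.90, limma adjusted p = 0.044, 18.1%). After quantile normalization the medians over the list were 1.65 in YFP-positive, 0.94 in Bcl6+/+, 1.03 in Bcl6yfp/+, 0.30 in CXCR5lo PD-1lo and 0.27 in YFP-negative cells.

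Thymidine kinase led every one of these comparisons. Tk1 averaged 11.48 ± 1.72 in YFP-positive cells (SD, n = 4) and 2.35 ± 0.26 in naive cells (SD, n = 2), a rise of 9.14 (SE 1.35, limma adjusted p = 8.31e-05). It rose by 7.87 in Bcl6yfp/+, 7.86 in Bcl6+/+, 6.46 in CXCR5lo PD-1lo and 5.39 in YFP-negative cells. With naive cells near the floor of the scale, these differences depend on where that floor lies. Gins2 rose by 8.09 in YFP-positive cells (SE 1.26), and Cdc6 by 7.70 (SE 1.65), Cdc45 by 6.37 (SE 1.25) and Mcm10 by 5.60 (SE 1.54). The 5 lowest of the 30 that rose in YFP-positive cells were Fen1 (1.58), Pola2 (1.48), Rpa2 (1.37), Rfc2 (1.27) and Pcna (0.91). In Bcl6+/+ cells Gins2 (6.76), Cdc6 (6.48), Uhrf1 (5.34) and Rrm2 (4.40) followed Tk1, and Pold3 (1.52), Mcm4 (1.37), Gins3 (1.22), Rfc2 (1.16) and Rpa1 (0.90) were the lowest that rose. Bcl6yfp/+ cells had Gins2 (6.35), Cdc6 (6.04), Uhrf1 (5.45) and Rrm2 (4.24) after Tk1, with Pola1 (2.48), Rfc3 (2.24), Mcm6 (1.95), Prim2 (1.72) and Fen1 (1.63) the lowest that rose. In CXCR5lo PD-1lo cells the 5 that rose were Tk1, Gins2 (4.91, SE 1.33), Uhrf1 (4.06, SE 0.93), Rrm2 (3.55, SE 0.70) and Rrm1 (2.21, SE 0.63). In YFP-negative cells those 5 also passed, with Gins2 at 4.08, Uhrf1 at 3.50, Rrm2 at 3.18 and Rrm1 at 2.08, together with Lig1 (2.05), Mcm6 (1.60) and Gins3 (1.05). With day 7 and naive arrays alone Tk1 rose by 7.66 in YFP-negative cells. Cdc6 in CXCR5lo PD-1lo cells differed by 5.32 (SE 1.74) and did not pass.

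Cdt1 and Pole2 stood apart from this rise, as did Tyms in 2 of the groups, and the next lowest differences were Rpa1 in YFP-positive (0.49), Mcm7 in CXCR5lo PD-1lo (0.30) and Chaf1b in YFP-negative cells (-0.40). Cdt1 differed from naive cells by 0.06 in YFP-positive, 0.34 in Bcl6+/+, -0.07 in Bcl6yfp/+, -0.02 in CXCR5lo PD-1lo and -0.69 in YFP-negative cells. Pole2 had differences of -0.40, -0.75, -1.10, -0.95 and -2.30 in the same order of groups, and with day 7 and naive arrays alone it was 0.43 in YFP-positive cells. The sign of Cdt1 in all but YFP-negative cells also turned under other settings. Tyms rose in YFP-positive cells (4.17, SE 0.83, limma adjusted p = 0.00128) and differed by -0.11 in Bcl6yfp/+ and -0.12 in Bcl6+/+ cells, where all arrays were at the floor.

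Within the sets that hold a naive array the picture was narrower. In set 4 the day 10 YFP-positive array exceeded naive 1 for 34 of 43 genes with a median of 0.72, and the day 10 YFP-negative array for 20 of 43 with a median of -0.11. In set 5 Bcl6yfp/+ 1 exceeded naive 2 for 41 of 43, with a median of 0.999. With the normalization set as a block the median over the list was -0.55 in CXCR5lo PD-1lo and -0.38 in YFP-negative cells and 0.85 to 1.01 in the other 3 groups. The genes that rose then numbered 9 in YFP-positive cells (25% of all genes called higher) and 5 in Bcl6yfp/+ cells (13.1%). In YFP-negative cells Rrm2 (2.45, SE 0.76) and Lig1 (2.41, SE 0.67) rose, while Pole2 (-4.36, SE 1.08) and Cdt1 (-1.37, SE 0.38) fell (41.6% of all genes called in either direction). None passed limma's test in CXCR5lo PD-1lo cells (13.8% of all genes called higher) or Bcl6+/+ cells (9.62%), where 3 and 7 of the 43 had an unadjusted p under 0.05. The 9 were Tk1, Gins2, Lig1, Uhrf1, Rrm2, Rrm1, Gins3, Mcm6 and Pold3.

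Day 10 arrays had less of these transcripts than day 7 arrays in the YFP-sorted groups. Within each of these groups no day 10 array shared a normalization set with a day 7 array, so day and set cannot be told apart there. In YFP-positive cells the single day 10 array was below all 3 day 7 arrays for 43 of 43 genes (52.2% of all genes), with a median difference of -1.92 against -0.29 over all genes. In YFP-negative cells 42 of 43 were lower on day 10, 34 of them without overlap (21.5% of all genes), with a median of -0.999 against -0.08. In Bcl6+/+ cells 21 of 43 were lower on day 10, 13 of them without overlap (26.1% of all genes), and the median was 0.01 against -0.05 over all genes. This even split includes Bcl6+/+ 1, the array of set 7. Within set 6 the day 10 array, Bcl6+/+ 2, was higher than the day 7 array, Bcl6+/+ 3, for 5 of 43 genes (31.6% of all genes), with a median of -0.10 against -0.02 over all genes. Over the 3 Bcl6+/+ arrays Orc1 and Mcm10, at 2.14 and 2.003, were higher on day 10, which rested on Bcl6+/+ 1 alone.

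Over the 3 groups together, with group in the fit, all 43 genes had a negative difference for day 10 minus day 7 (29.6% of all genes had one above 0). The median was -1.03, against -0.14 over all genes. None passed limma's test with Benjamini-Hochberg adjustment (0.232% of all genes called) and 31 had an unadjusted p under 0.05 (10.2% of all genes). Cdc6 (-3.46, SE 0.89, limma adjusted p = 0.131), Tk1 (-2.95, SE 0.70) and Pole (-2.60, SE 0.68) were the lowest, and Rpa1 (-0.04, SE 0.16), Gins3 (-0.19, SE 0.25) and Lig1 (-0.22, SE 0.33) the highest. Without Bcl6+/+ array 3, its only day 7 array, 19 genes fell (3.97% of all genes called in either direction), and the day difference then came from the YFP-sorted groups alone. Without Bcl6+/+ array 1 the count was 9 (1.32% in either direction) and without array 2 it was 2 (1.18%). Without YFP-positive array 4 the median was -0.51 and 0 genes passed (0% of all genes), with 10 at an unadjusted p under 0.05.

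Whether the day difference itself differed between groups was tested as an interaction. Between YFP-positive and YFP-negative cells the median was -0.77 against -0.21 over all genes, and 0 of 43 genes passed or had an unadjusted p under 0.05 (limma with Benjamini-Hochberg adjustment, 0% of all genes called). Orc1 (-4.25, SE 2.29), Mcm10 (-2.33, SE 2.21) and Tyms (-1.67, SE 0.94) were the lowest, and Cdc6 (2.59, SE 1.53), Tk1 (1.18, SE 1.31) and Gins2 (0.78, SE 1.50) the highest. A test added after the values were seen set the mean day difference of the YFP-sorted groups against that of Bcl6+/+ cells. All 43 genes were below 0 (61.5% of all genes), with a median of -1.60 against -0.13 over all genes. None passed limma's test with Benjamini-Hochberg adjustment, in which 12 genes passed in all, and 21 of the 43 had an unadjusted p under 0.05. The day 10 arrays in the YFP-sorted groups are also those with Kdm5d, which all Bcl6+/+ arrays carry on both days, so in the YFP-sorted groups day and that difference cannot be told apart. YFP-negative 1, one of the day 10 arrays, is also the array with Lyz2 at 10.98, whose part was not tested.

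**Figure D4:**
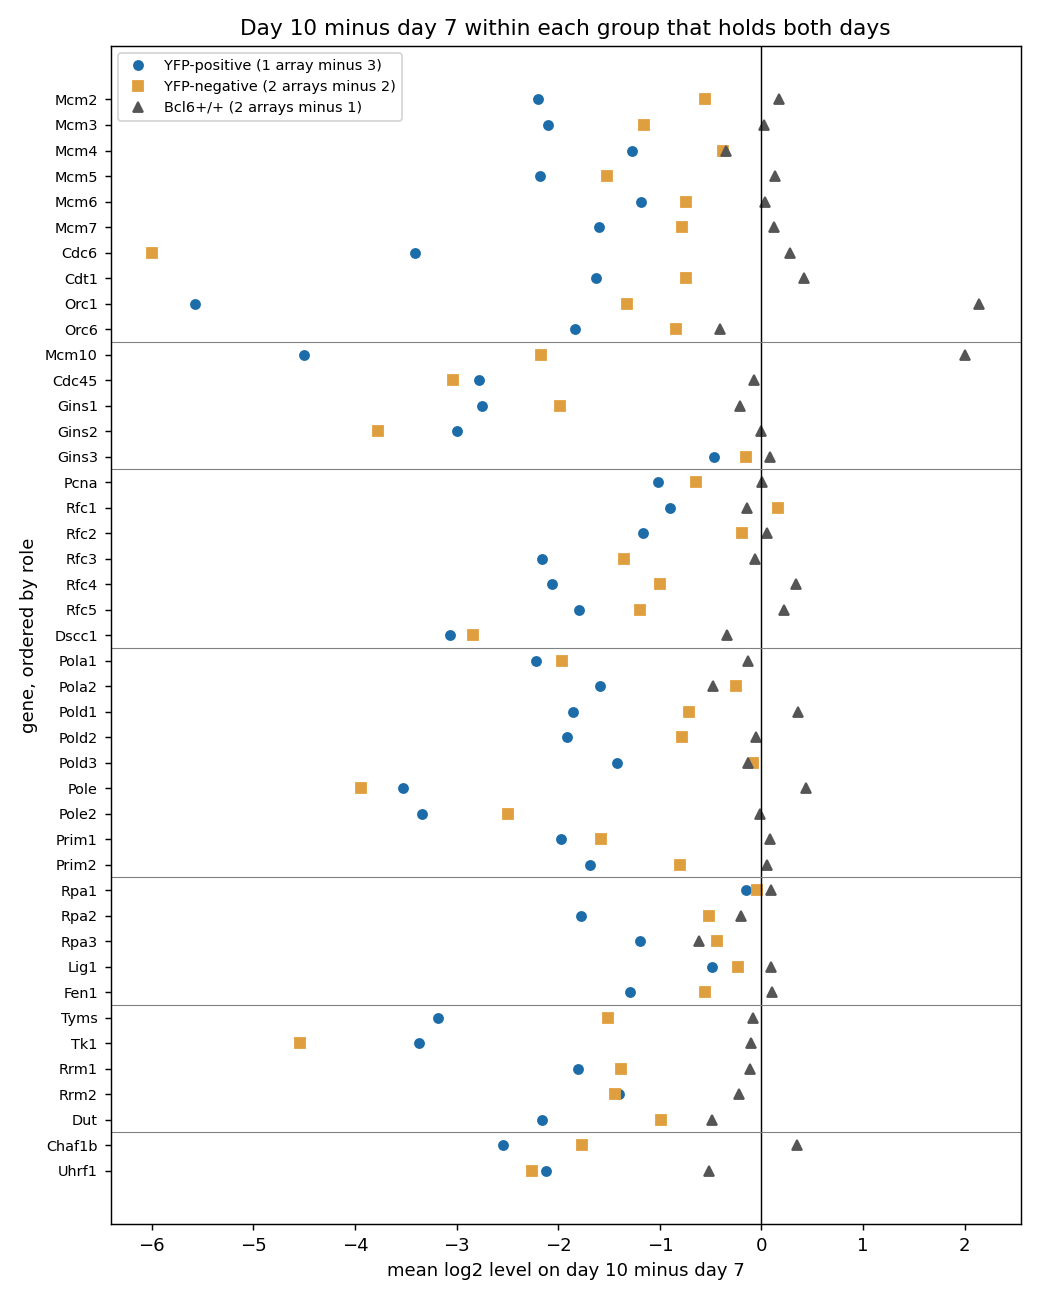
Difference in log2 level, day 10 minus day 7, for each of the 43 genes (vertical axis, by role) in the 3 groups that hold both days (symbols, with the number of arrays in the legend). YFP-positive and YFP-negative points lie left of 0 for nearly every gene, and the Bcl6+/+ points lie around 0, apart from Orc1 and Mcm10 to the right.

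Other genes of the same pathways were counted in the same fits. Among 37 other replication genes kept of 38, 32 were higher in YFP-positive than in YFP-negative cells, with a median of 0.72 and none past the threshold, led by the checkpoint mediator Clspn (4.29, SE 1.27) and the nuclease-helicase Dna2 (3.54, SE 1.28), with Mcmbp (-0.05, SE 0.21) and Orc5 (-0.05, SE 0.24) lowest. Against CXCR5lo PD-1lo cells 1 of the 37 rose, Mcm8 (3.51, SE 0.79, limma adjusted p = 0.00749), where 5.17% of all genes were called higher. Against naive cells 23 rose in YFP-positive cells (22.4% of all genes), led by Dtl (8.98, SE 1.17). The other nucleotide synthesis genes, mostly of the purine, pyrimidine and folate routes, had smaller differences. Of 29 kept of 31, 22 had a YFP-positive minus YFP-negative difference above 0 (50.3% of all genes), 6 had an unadjusted p under 0.05 (7.92%), and the median was 0.24 against 0.00 over all genes. The difference between the lists was not tested. Against CXCR5lo PD-1lo cells none rose (5.17% of all genes called higher) and Cmpk2 (-1.50), Samhd1 (-1.13), which degrades dNTPs, and Prps1 (-1.05) fell. Against naive cells only Mthfd2 (1.50) and Gmps (0.92) rose in YFP-positive cells (22.4% of all genes called higher), and Impdh1 (-3.66) and Samhd1 (-0.85) fell. The falls in both comparisons were not set against the share of all genes called lower.

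The list of E2F and pocket protein genes also held Tfdp1, Tfdp2 and the cyclin E genes Ccne1 and Ccne2. These 15 genes had a median of 0.64 for YFP-positive minus YFP-negative, with 13 above 0 and none past the threshold. E2f7 (4.39, SE 1.48) and E2f8 (3.38, SE 1.14) were highest, and Rbl2 (-0.39, SE 0.32) and E2f5 (-0.04, SE 0.25) lowest. Ccne2 differed by 1.74 (SE 0.60) and Ccne1 by 1.47 (SE 0.47). E2f1, which activates S phase genes, rose by 3.95 against CXCR5lo PD-1lo cells (SE 1.17, limma adjusted p = 0.0384). It was the only one of the 15 to pass there, where 5.17% of all genes were called higher. In YFP-positive cells 10 of 15, Ccne1 and Ccne2 among them, rose against naive cells (22.4% of all genes), led by E2f8 (8.48, SE 1.39). The mitosis genes had larger medians than the replication genes. All 24 kept of 25 had higher levels in YFP-positive than in YFP-negative cells, with a median of 2.99, led by Ttk (4.07, SE 1.18) and Cenpf (3.94, SE 1.26), with Cenpa (0.40, SE 0.40) and Mki67 (1.72, SE 0.64) lowest, and none passed. Against CXCR5lo PD-1lo cells 6 of the 24 rose (Ttk, Cenpe, Cenpf, Nusap1, Kif20a and Cdk1, against 5.17% of all genes), and against naive cells 23 did (22.4% of all genes), with a median of 6.68. Day 10 minus day 7 had medians of -1.86 for mitosis genes, -0.72 for the other replication genes, -0.46 for E2F and pocket protein genes and -0.37 for the other nucleotide synthesis genes, and none of these genes passed.

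**Figure D5:**
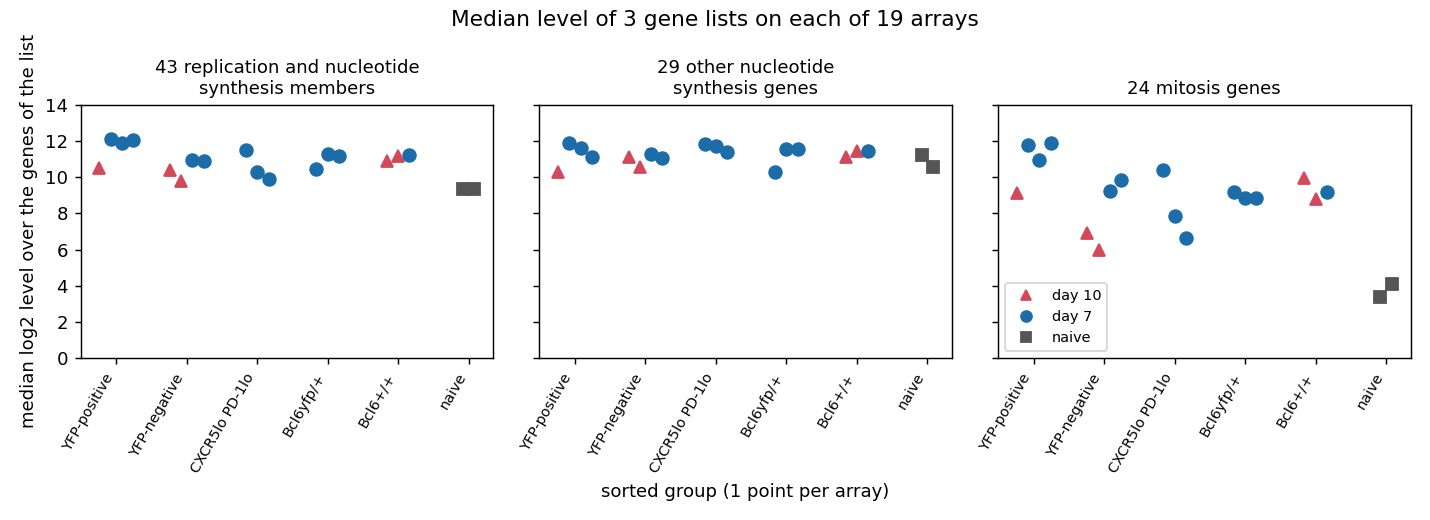
Median log2 level over the genes of each list (vertical axis) on each of the 19 arrays (1 point each, by group), with triangles for day 10, circles for day 7 and squares for naive cells. The replication list spans 9.34 in naive cells to 12.09 in day 7 YFP-positive cells, the other nucleotide synthesis genes keep between 10.27 and 11.87, and the mitosis genes span 3.40 to 11.88.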

How the data were processed

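Expression was measured on Affymetrix arrays, 1 per sample, in sorted mouse CD4+ T cells. The deposited values are log2 intensities of 45101 probe sets on 19 arrays, computed with GCRMA per the submitters' processing notes; its version is not given in the sources used here. Probe sets were named from GEO's platform annotation, in which 34945 carried 1 symbol, 932 several and 9160 none. For each gene the probe set with the highest mean was used, and 9928 genes at log2 4 or more on 2 arrays were kept.

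Groups came from the labels. Limma 3.58.1 (R 4.3.3) fitted group means over all 19 arrays with moderated variances, and p-values were adjusted by Benjamini-Hochberg over all genes kept, with calls at 0.05. The day difference was fitted on the YFP-positive, YFP-negative and Bcl6+/+ arrays with group in the fit. The group and set block fits were tested on simulated data with independent noise for each gene and array, for YFP-positive minus YFP-negative alone. Gene-by-gene links between arrays and differences between days were not simulated. Precision is limited by 2 to 4 arrays a group. Alternatives were a replicate block, a normalization set block, quantile normalization, other filters and probe set rules, day as a covariate or day 7 alone, and leaving out single arrays. The same replicate number marked arrays that deviated together (correlations of deviations from group means 0.27 to 0.87 in the 4 pairs of groups, all above 0.1). These numbers were taken to pair the arrays. Arrays with unlike numbers reached 0.39 for YFP-negative with CXCR5lo PD-1lo and 0.55 for Bcl6yfp/+ with Bcl6+/+ cells. They reached 0.38 for YFP-positive with CXCR5lo PD-1lo and 0.25 for YFP-positive with YFP-negative cells. Some arrays of the same number came from different days, such as YFP-positive 1 (day 7) and YFP-negative 1 (day 10). In the YFP-sorted and CXCR5lo PD-1lo groups arrays of the same number also share a normalization set, so the 2 cannot be told apart there.

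The genes and lists (other replication genes, other nucleotide synthesis genes, E2F and pocket protein genes, mitosis genes, cell type markers) were chosen with earlier results of these data known. Values on every array were given for 25 genes chosen by role, and for each comparison all called genes where at most 10 were called, otherwise the 5 highest and 5 lowest of them, with the 3 highest and 3 lowest differences. Of each other list the called genes, or else the 2 highest and 2 lowest, were named where few. Promoter letters were searched with Python 3.11.15 in RefSeq start regions.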

Additional observations from a re-analysis of the deposited data

Results flagged for a closer look

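One array stood far below the other 3 of its group in 22 genes, and in each it was YFP-positive 4, the day 10 array, that was the lowest. The measure is the gap to the nearest other array divided by the whole range of the group, set against Dixon's critical value for 4 arrays. Chance alone passes it in about 1 in 20 groups, and 86 groups of 4 (43 genes in each YFP-sorted group) were examined; no YFP-negative group passed. Among licensing genes the ratio was 0.863 for Mcm3, 0.831 for Mcm4, 0.832 for Mcm7, 0.874 for Cdc6, 0.877 for Cdt1 and 0.865 for Orc6. It was 0.847 for Gins1 and 0.870 for Gins2. For the clamp and its loaders it was 0.884 for Pcna, 0.933 for Rfc3 and 0.834 for Dscc1. Among polymerases and primase it was 0.867 for Pola1, 0.924 for Pold1, 0.849 for Pole, 0.890 for Pole2, 0.847 for Prim1 and 0.846 for Prim2. The remaining ratios were 0.888 for Rpa2, 0.847 for Rpa3, 0.955 for Fen1, 0.921 for Dut and 0.927 for Uhrf1. The 22 genes share that array, so they are not 22 separate observations. It is also the group's only array with Kdm5d and its only one in set 4.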

How the results depend on the processing

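Counts of the 43 genes past limma's threshold moved with the settings, and so did some list medians. As given above, the medians of CXCR5lo PD-1lo and YFP-negative minus naive cells turned sign with the set block. That of YFP-negative minus CXCR5lo PD-1lo turned with day 7 and naive arrays alone. Leaving out single arrays, it ran from -0.62 to 0.25, and that of Bcl6yfp/+ minus Bcl6+/+ from -0.37 to 0.02. Percentages below are shares of all genes called higher in the same setting, unless said otherwise. Of 1364 values under other settings, counted over the genes named for each comparison and not over all 43, 1086 kept their direction and their side of the threshold, 172 kept the direction and lost the call, 41 gained a call and 65 turned sign. For YFP-positive minus YFP-negative the count of 0 became 1 (replicate block, 0.312%) or 33 (set block, 8.38%). For YFP-positive minus CXCR5lo PD-1lo the count of 4 (5.17%) became 31 with the replicate block (11.2%), 35 with the set block (22.7%), 15 after quantile normalization (10.3%), 20 with day as a covariate (6.36%) and 29 with day 7 and naive arrays alone (6.57%). The replicate block changed no count in the other 4 comparisons it was fitted for; it was not fitted against naive cells. With the set block the counts were 0 for CXCR5lo PD-1lo (13.8%), 9 for YFP-positive (25%), 4 for YFP-negative (41.6% in either direction), 5 for Bcl6yfp/+ (13.1%) and 0 for Bcl6+/+ cells (9.62%), each minus naive cells, where the naive arrays lie in 2 sets and few arrays share them. Without a filter on level, and so with more genes to adjust over, CXCR5lo PD-1lo minus naive had 3 (4.88%) and Bcl6yfp/+ minus naive 8 (7.29%). With day as a covariate the counts against naive cells were 8 for CXCR5lo PD-1lo (11.4%), 16 for YFP-negative (17.5%) and 20 for Bcl6yfp/+ cells (16.2%), and with day 7 and naive arrays alone 8 (9.42%), 14 (12.7%) and 21 (14.5%), with 14 for Bcl6+/+ cells (12.6%). After quantile normalization Bcl6+/+ minus naive had 15 (17.8%) and day 10 minus day 7 had 1, which was Pole2 (0.463% in either direction). Without set 6, an alternative chosen after seeing the data, the counts were 1 for Bcl6yfp/+ minus Bcl6+/+ (9.66% in either direction), 1 for Bcl6yfp/+ minus naive (4.36%) and 12 for Bcl6+/+ minus naive (25.9%). Leaving out single arrays gave 0 to 29 for YFP-positive minus YFP-negative, 1 to 25 for YFP-positive minus CXCR5lo PD-1lo, 0 to 1 for YFP-negative minus CXCR5lo PD-1lo and 0 to 19 for day 10 minus day 7. Against naive cells it gave 17 to 40 for YFP-positive, 7 to 20 for Bcl6+/+, 7 to 21 for Bcl6yfp/+, 1 to 10 for CXCR5lo PD-1lo and 1 to 9 for YFP-negative cells, the low ends without a naive array. Over these runs the share of all genes called in either direction was 0.0403% to 3.09%, 6.59% to 10.6%, 4.17% to 6.09% and 0% to 3.97% in the same order, and against naive cells 16% to 32.1%, 17.9% to 35.1%, 11.9% to 44.8%, 5.73% to 11.6% and 11.3% to 21.2%. Where the construction does not show the cause, it was not tested.

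With the replicate block the sign turned for Rpa1 0.055 (day 10 minus day 7). With the normalization set block it turned for Mcm10 0.18 (Bcl6yfp/+ minus Bcl6+/+), Mcm7 -0.78 (CXCR5lo PD-1lo minus naive), Cdt1 -0.61 (YFP-positive minus naive), Cdt1 0.16 and Tyms 0.0046 (Bcl6yfp/+ minus naive) and Tyms 0.017 (Bcl6+/+ minus naive). After quantile normalization it turned for Mcm7 -0.20 (CXCR5lo PD-1lo minus naive), Cdt1 -0.40 (YFP-positive minus naive), Tyms 0.22 (Bcl6yfp/+ minus naive), Cdt1 -0.32 and Tyms 0.17 (Bcl6+/+ minus naive) and Rpa1 0.10 (day 10 minus day 7). With the mean of all kept probe sets it turned for Uhrf1 -0.020 and Dut -0.024 (Bcl6yfp/+ minus Bcl6+/+), Cdt1 0.11 (CXCR5lo PD-1lo minus naive), Tyms 0.035 (Bcl6yfp/+ minus naive) and Tyms 0.10 (Bcl6+/+ minus naive). With day as a covariate it turned for Dscc1 -1.23, Uhrf1 -1.04 and Dut -0.76 (Bcl6yfp/+ minus Bcl6+/+), Pole2 0.11 (YFP-positive minus naive), Chaf1b 0.31 (YFP-negative minus naive) and Tyms 0.97 and Pole2 0.63 (Bcl6+/+ minus naive). With day 7 and naive arrays alone it turned for Rpa1 0.013 (YFP-positive minus YFP-negative), Cdc6 0.77 (YFP-negative minus CXCR5lo PD-1lo), Uhrf1 -0.23, Dut -0.28 and Mcm10 0.48 (Bcl6yfp/+ minus Bcl6+/+), Pole2 0.43 (YFP-positive minus naive) and Chaf1b 0.48 (YFP-negative minus naive). Without set 6 it turned for Cdt1 0.32 (Bcl6yfp/+ minus naive). Leaving out single arrays gave differences on both sides of 0 for Rpa1 -0.041 to 0.033 (YFP-positive minus YFP-negative), Pold2 -0.030 to 0.66 and Cdt1 -0.091 to 0.49 (YFP-positive minus CXCR5lo PD-1lo), Gins3 -0.051 to 0.56 (YFP-negative minus CXCR5lo PD-1lo), Uhrf1 -0.19 to 0.36, Dut -0.29 to 0.34, Pole -1.17 to 0.074 and Mcm10 -1.52 to 0.46 (Bcl6yfp/+ minus Bcl6+/+) and Cdt1 -0.18 to 0.14 (CXCR5lo PD-1lo minus naive). The same held for Cdt1 -0.11 to 0.47 and Pole2 -0.73 to 0.43 (YFP-positive minus naive), Cdt1 -0.26 to 0.093 and Tyms -0.28 to 0.058 (Bcl6yfp/+ minus naive), Cdt1 -0.088 to 0.64 and Tyms -0.29 to 0.046 (Bcl6+/+ minus naive), Rpa1 -0.087 to 0.014 (day 10 minus day 7) and Gins2 -0.084 to 1.64 (day effect in YFP-positive minus day effect in YFP-negative).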

Other observations

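The mitosis genes spread further than the replication genes over the same arrays. Their median log2 level over the list was 9.14 on the day 10 YFP-positive array and 11.77, 10.95 and 11.88 on the day 7 ones, against 6.94 and 5.98 on the day 10 YFP-negative arrays and 9.25 and 9.82 on the day 7 ones, and 3.40 and 4.08 in naive cells. The replication genes had list medians of 9.36 and 9.34 on the same naive arrays. Pole2 was high in naive cells and Tyms was at the floor in both unsplit CXCR5hi PD-1hi groups, in which Tk1 was at 10.05 to 10.34 on all 6 arrays.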
